A study of Homo sapiens with 8 samples.

Results

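A set of 269 expression probes, out of 48803 on the array, is described here. Each was at least 4-fold higher on the deposited log2 scale in the non-cancerous prostate line RWPE-1 than in every prostate cancer line. The cancer lines were DU145, LNCaP-FGC and PC3. The ratio of raw intensities was at least 4 in every cancer line in 186 of the 269. The members were chosen by their measured values: in the authors' deposited log2 table, the RWPE-1 value had to exceed the value of every cancer line by at least 2. They made up 0.551% of all probes. Because these same 4 arrays chose the members, their expression levels are given as a description, without a test, and the direction of every difference follows from the choice. The members fall into 3 classes by the raw intensity of the cancer lines. In 36 members the signal was below the median probe of the array in all 3 cancer lines, and these are called silenced here. In 131 members it was above the median probe in all 3, and these are called reduced. The other 102 members were below it in 1 or 2 of the lines and are called mixed. The class sizes depend on the line drawn: at the 75th percentile of each array 104 members were silenced and 53 reduced. A rule over 2 cancer lines gave 71 silenced and 197 reduced probes when PC3 was dropped. It gave 63 silenced and 209 reduced when DU145 was dropped, and 53 silenced and 357 reduced when LNCaP-FGC was dropped. Of all the probes these rules passed, 98, 109 and 209 were outside the 269, so these counts are not class sizes of the members. The class names stand for this division only, since the files give no detection p-value.

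The study measured total RNA from each of these 4 established human cell lines on 1 Illumina HumanHT-12 beadchip per line, and genomic DNA from the same lines on a methylation beadchip. DU145, LNCaP-FGC and PC3 are lines derived from metastases of prostate carcinoma, and only LNCaP-FGC among them is known for depending on androgen for growth. RWPE-1, which the labels call a control normal prostate line, is an epithelial line immortalized with a papillomavirus, so the control is itself 1 immortalized line in culture. The labels name no treatment, culture condition, passage or repeat array for any line, and an error given over the cancer lines is the spread between 3 different lines. Arrays of bulk RNA cannot tell fewer expressing cells in a culture from less RNA per cell.

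The prostate epithelium has a basal layer resting on the basement membrane and a luminal layer that secretes into the gland, and each layer has its own keratins, adhesion proteins and transcription factors. Prostate carcinoma typically keeps luminal features and lacks the basal layer, whereas RWPE-1 is known to carry basal features in culture. On an expression array, each probe is a short sequence fixed to beads, and labelled RNA of 1 transcript makes it bright. A probe whose transcript is absent keeps a low brightness from the array's background, so a very low level has a lower limit that no fold difference can pass. The tables used here pair no probe with a gene, so the members are given by identifier and level, the marker genes of basal and luminal epithelium could not be looked up, and no sequence is shown.

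Median raw intensity was 151 on the RWPE-1 array, 178 on that of DU145, 154 on that of PC3 and 182 on that of LNCaP-FGC, with lowest values of 92.3 to 104 and highest values of 66181 to 68654. In the deposited log2 table all 4 columns ran from 6.57 to 16.03 with a median of 7.37. Precision is limited by the number of arrays, 1 per line.

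In RWPE-1 the members were bright probes. Their deposited log2 level in RWPE-1 ran from 9.34 to 15.97 with a median of 11.66, and their raw intensity from 579 to 62267 with a median of 2554. The dimmest of them was at the 85.3 percentile of the RWPE-1 array and the median member at the 95.7 percentile. In the cancer lines the median member was at the 72.3 percentile of the DU145 array, the 58.6 percentile of the LNCaP-FGC array and the 72.8 percentile of the PC3 array. The median log2 level was 7.93 in PC3, 7.89 in DU145 and 7.47 in LNCaP-FGC. The middle 50% of members lay between 7.23 and 8.54 in LNCaP-FGC, against 7.32 to 9.10 in DU145 and 7.37 to 9.06 in PC3. A log2 level below 9, which no member had in RWPE-1, was measured for 218 members in LNCaP-FGC, while PC3 had 200 such members and DU145 had 196.

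The difference between RWPE-1 and a cancer line had a median on the log2 scale of 3.38 for LNCaP-FGC, 3.19 for DU145 and 3.16 for PC3. Over all 48803 probes the corresponding medians were -0.01, -0.01 and 0. With each line taken by itself, the size rule was met by 831 probes for PC3 (1.70% of the array), 820 for LNCaP-FGC (1.68%) and 793 for DU145 (1.62%), all counted against the same RWPE-1 array. Averaged over the cancer lines, the difference ran from 2.10 to 7.74 with a median of 3.26.

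Larger differences were found in fewer members. As measured, a difference of at least 8-fold in every cancer line was found in 108 members (0.221% of all probes), of 16-fold in 40 (0.0820%), of 32-fold in 20 (0.0410%) and of 64-fold in 6 (0.0123%). With cancer lines held at the median probe of their array where they were below it, these counts were 106, 39, 18 and 6, and 266 of the 269 members were at least 4-fold lower. On that footing the 18 members at 32-fold were 6 silenced, 10 mixed and 2 reduced, and the 6 at 64-fold were 4 silenced and 2 mixed. In the opposite direction, 59 probes (0.121%) were at least 4-fold higher in every cancer line than in RWPE-1, 10 of which were below the median probe in RWPE-1.

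Since all 3 cancer lines had to be below the median probe, the silenced members could differ from one another almost only in their RWPE-1 level. That level had a median of 10.50 on the log2 scale and a range of 9.34 to 14.10, with raw intensities of 579 to 13414. In the cancer lines their raw intensities were 108 to 151 for PC3, 127 to 172 for DU145 and 126 to 182 for LNCaP-FGC. The 3 cancer lines differed by 0.05 to 0.40 on the log2 scale within a silenced member, with a median of 0.16. Levels this low are within the background of the arrays, where no detection p-value was given, so the order of the cancer lines within a silenced member is not readable and the fold difference is a lower bound. With the level of each cancer line held at the median probe, the RWPE-1 level of the median silenced member was at least 8.77-fold higher, and the bound ran from 3.92-fold to 106-fold. The bound was under 4-fold in 3 of the 36. These bounds hold on the deposited log2 scale only, and ratios of raw intensities could be smaller. The smallest raw ratio over the 3 lines had a median of 7.76 in the silenced members.

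ILMN_1801632 had the largest mean difference of the silenced members, with raw intensities of 13414 in RWPE-1, 147 in PC3, 152 in DU145 and 156 in LNCaP-FGC. On the deposited log2 scale RWPE-1 was at 14.10 and the cancer lines at 7.19 ± 0.0981 (SD, n = 3), a bound on that scale of 106-fold. The smallest ratio of its raw intensities was 86.2. RWPE-1 had this probe in the top 1% of its array, at the 99.3 percentile, and all 3 cancer lines had it below their median probe.

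ILMN_1693912 had the second largest measured difference, with raw intensities of 10098 in RWPE-1, 130 in PC3, 151 in DU145 and 149 in LNCaP-FGC. On the log2 scale RWPE-1 was at 13.68 and the cancer lines at 7.10 ± 0.0306 (SD, n = 3), a bound on that scale of 79.3-fold. The smallest ratio of its raw intensities was 66.7. By the bound another silenced member, with 84.4-fold on the log2 scale, ranked above ILMN_1693912.

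The mixed members had a median RWPE-1 level of 11.44 on the log2 scale and a median difference, averaged over the cancer lines, of 3.73, the largest of the 3 class medians (3.41 in the silenced and 3.10 in the reduced members). With cancer lines held at the median probe where they were below it, these medians were 3.64 in the mixed and 3.13 in the silenced members, and the reduced members kept 3.10. The cancer lines differed within a mixed member by 1.00 at the median and by 0.15 to 4.74 in all.

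ILMN_2219002 had the largest mean difference of all members, with raw intensities of 32185 in RWPE-1, 267 in PC3, 158 in DU145 and 162 in LNCaP-FGC. RWPE-1 was at 15.24 on the deposited log2 scale and the cancer lines at 7.50 ± 0.531 (SD, n = 3). It was below the median probe in DU145 and LNCaP-FGC, at the 24.4 and 24.3 percentile, and at the 75.2 percentile in PC3. With the first 2 held at the median probe, the bound on the log2 scale was 140.1-fold in the nearest line, PC3. As a mean over the 3 lines it was 197-fold. The smallest ratio of its raw intensities was 121.

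ILMN_1666845 was the brightest member, with a raw intensity of 62267 in RWPE-1, close to the 66931 of the brightest probe there. The cancer lines had raw intensities of 1184 in PC3, 209 in DU145 and 167 in LNCaP-FGC. The log2 level of RWPE-1 was 15.97 and that of the cancer lines 8.32 ± 1.56 (SD, n = 3). PC3 stood above the other cancer lines, at the 89.7 percentile of its array, while LNCaP-FGC was at the 31.2 percentile.

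The reduced members had the highest median level of the 3 classes in RWPE-1. Their RWPE-1 level had a median of 12.19 on the log2 scale, against 8.63 in PC3, 8.75 in DU145 and 8.44 in LNCaP-FGC. Raw intensities had a median of 3604 in RWPE-1, 399 in PC3, 422 in DU145 and 343 in LNCaP-FGC. Many of them were dim in the cancer lines: 53 of the 131 were above the 75th percentile of the array in all 3, and the lowest lay at the 50.4 percentile of the LNCaP-FGC array, on the edge of the class. The cancer lines differed by 0.82 on the log2 scale at the median reduced member and by 0.07 to 4.10 in all.

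ILMN_1751161 had the largest mean difference of the reduced members, with raw intensities of 16592 in RWPE-1, 186 in PC3, 199.7 in DU145 and 516 in LNCaP-FGC. RWPE-1 had a log2 level of 14.36 and the cancer lines 8.07 ± 0.832 (SD, n = 3). LNCaP-FGC was the highest cancer line, at the 83.1 percentile of its array, and DU145 and PC3 were at the 63.5 and 66.6 percentile.

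ILMN_2206746, the next, had LNCaP-FGC at the bottom and not on top. The raw intensities were 29731 in RWPE-1, 934 in PC3, 614 in DU145 and 202 in LNCaP-FGC. Here RWPE-1 was at 15.11 and the cancer lines at 8.87 ± 1.16 (SD, n = 3). LNCaP-FGC was at the 63.5 percentile of its array, against 84.8 in DU145 and 87.8 in PC3.

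At the other end of this class were members that stayed among the bright probes of every array. The member with the highest level in the cancer lines had raw intensities of 46548 in RWPE-1, 13994 in PC3, 11265 in DU145 and 7963 in LNCaP-FGC. Its mean difference was 2.45 on the log2 scale, and its cancer lines were at 13.22 ± 0.345 (SD, n = 3). The next had 22480 in RWPE-1, 6308 in PC3, 6708 in DU145 and 5246 in LNCaP-FGC, with a mean difference of 2.38 and cancer lines at 12.39 ± 0.0862. The cancer lines were 0.69 apart on the log2 scale in the first of these 2 probes and 0.17 apart in the second. In both the signal was lower in all 3 lines without nearing the background. The smallest ratio of raw intensities was 3.33 in the first and 3.35 in the second, so the 4-fold difference held on the deposited log2 scale only.

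The share of probes that were members varied with the level in RWPE-1. No probe under a log2 level of 9 in RWPE-1 was a member (0 of 40465), because the array's lower limit leaves little room for a difference of 2. From 9 to 10 the share was 1.03% (31 of 3008), and it was 2.92% from 10 to 11, 4% from 11 to 12, 6.37% from 12 to 13 and 8.69% from 13 to 14 (41 of 472). At 14 and over it was 5.65% (20 of 354). The classes varied along this scale as well: 15 of the 31 members between 9 and 10 were silenced and 5 were reduced, whereas 3 of the 41 between 13 and 14 were silenced and 29 were reduced. A dim RWPE-1 probe can be 4-fold lower only at a low level in the cancer lines, so part of that order is fixed by the rule.

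The 3 cancer lines did not contribute alike to the low signals. LNCaP-FGC was below its median probe in 112 of the 269 members (41.6%), DU145 in 75 (27.9%) and PC3 in 69 (25.7%). Of the mixed members, 37 were below the median in LNCaP-FGC alone, 12 in PC3 alone and 7 in DU145 alone. Another 25 were below it in DU145 and LNCaP-FGC, 14 in LNCaP-FGC and PC3 and 7 in DU145 and PC3. LNCaP-FGC had the same place among probes outside the members. Among the probes 4-fold lower in a line that were not members, 193 of 551 (35.0%) were below the median in LNCaP-FGC, against 67 of 524 (12.8%) in DU145 and 66 of 562 (11.7%) in PC3. Members included, 305 probes (0.625% of the array) were both 4-fold lower and below the median in LNCaP-FGC, 142 (0.291%) in DU145 and 135 (0.277%) in PC3.

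The order of the cancer lines was read with levels below the median probe held at it, so that 2 lines in the background count as tied. LNCaP-FGC was then the lowest line in 87 of the 269 members (32.3%), DU145 in 49 (18.2%) and PC3 in 48 (17.8%), with ties in 85. PC3 was the highest in 100 members (37.2%), DU145 in 83 (30.9%) and LNCaP-FGC in 48 (17.8%), with ties in 38. As measured, background levels included, the lowest line was LNCaP-FGC in 120 members, DU145 in 77 and PC3 in 65. For reading these shares, 6945 probes outside the members were at or above the lowest RWPE-1 level of a member. They were not matched to the members in level: their median log2 level in RWPE-1 was 10.71, against 11.66 in the members. In the cancer lines their medians were 10.66 in PC3, 10.67 in LNCaP-FGC and 10.69 in DU145. Among these 6945 probes, LNCaP-FGC was lowest in 31.8%, DU145 in 32.0% and PC3 in 34.9%, with ties in 1.34%. LNCaP-FGC was highest in 36.2%, DU145 in 32.7% and PC3 in 30.3%. Ties for the lowest line made up 31.6% of the members, so the shares of the 2 sets are not directly comparable. In the reduced members, which lie above the median probe in every line, LNCaP-FGC was lowest in 50 of 131, DU145 in 43 and PC3 in 36. Without repeat arrays there is no test of these orders, and the median difference between LNCaP-FGC and PC3 over the members was small, at -0.11 on the log2 scale, against 0.01 over all probes.

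Agreement between the cancer lines varied widely from member to member. The highest and lowest cancer line were less than 0.5 apart on the log2 scale in 109 members (40.5%) and less than 1 apart in 166 (61.7%). The median of this spread was 0.72 over the members and 0.27 over all probes. Over the 6945 other probes at or above the lowest RWPE-1 level of a member, not matched in level, it was 0.98. All 36 silenced members were among the 109, as their level near background fixes, together with 29 mixed and 44 reduced members. With the same floor, the cancer lines differed at least 4-fold from one another in 38 members, 19 of them mixed and 19 reduced. In those 38, LNCaP-FGC was the lowest line in 25, PC3 in 8 and DU145 in 2, with ties in 3, and DU145 was the highest in 20, PC3 in 13 and LNCaP-FGC in 5. Without the floor 41 members had such a spread. Taken pair by pair without the floor, 9.67% of members differed at least 4-fold between LNCaP-FGC and PC3. The share was 8.92% between DU145 and LNCaP-FGC and 5.2% between DU145 and PC3. Over the 6945 other probes, not matched in level, these shares were 8.05%, 6.85% and 4.98%. Pairs with LNCaP-FGC thus differed 4-fold most often in both sets. The shares carry no direction, and the lowest line in wide spreads was not counted outside the members.

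The widest spread as measured was 4.74 on the log2 scale, in a mixed member with raw intensities of 16161 in RWPE-1, 5015 in PC3, 499 in DU145 and 181 in LNCaP-FGC. On the log2 scale PC3, at 12.10 in this probe, was nearer to RWPE-1 (14.34) than to LNCaP-FGC (7.36). The second, with a spread of 4.44, had 10350 in RWPE-1, 139.9 in PC3, 1183 in DU145 and 3382 in LNCaP-FGC. Here LNCaP-FGC was the highest cancer line and PC3 the lowest, the reverse of the first. The widest reduced member, with a spread of 4.10, had 10224 in RWPE-1, 2029 in PC3, 3235 in DU145 and 185 in LNCaP-FGC, so that LNCaP-FGC was barely above its median probe.

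Over the 269 members the log2 levels of DU145 and PC3 correlated with a Pearson r of 0.741, those of DU145 and LNCaP-FGC with 0.671 and those of LNCaP-FGC and PC3 with 0.629. Over the 6945 other probes at or above the lowest RWPE-1 level of a member these were 0.834, 0.786 and 0.758. The order of the pairs was the same, and the rule caps the level of the cancer lines in members. These correlations run across probes of the same 4 arrays, which share their normalization, and probes are not independent replicates.

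Requiring every line kept out many probes by a single line. LNCaP-FGC was the line that missed in 209 probes 4-fold lower in both others, DU145 in 109 and PC3 in 98. Most of these were lower in the remaining line too, by a smaller amount: at least 2-fold in 154 of the 209 for LNCaP-FGC, 69 of the 109 for DU145 and 56 of the 98 for PC3. The remaining line was level with RWPE-1 or higher in 13, 17 and 16 of them. All were counted against the same RWPE-1 array. Over the 6945 other probes at or above the lowest RWPE-1 level of a member, the upper quartile of the log2 difference was already near 2-fold. It was 0.91 for LNCaP-FGC, 0.95 for DU145 and 1.03 for PC3. Without LNCaP-FGC in the rule, 478 probes would have passed in place of 269.

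The threshold has no gap around it. The smallest difference over the 3 lines was less than 0.25 above the threshold in 65 members, and 100 probes missed it by less than 0.25. The 5 members just inside had smallest differences of 2 to 2.01, and RWPE-1 levels of 9.35 to 13.62. The 5 probes just outside had smallest differences of 1.99 and RWPE-1 levels of 9.76 to 15.21. One of the latter was bright in RWPE-1, with a raw intensity of 31780 against 11120 in PC3, 6364 in DU145 and 873 in LNCaP-FGC, and missed in PC3 alone.

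The typical member, as the median over members of each line's level minus the probe's mean over the 4 lines, was at 2.44 in RWPE-1, and at -0.94 for LNCaP-FGC, -0.79 for DU145 and -0.73 for PC3. Of the probes outside the members, the 5 nearest to this pattern were at Euclidean distances of 0.935 to 0.951, against a median of 0.930 over the members. Their smallest differences were 1.86 to 1.99, so they had just missed the rule.

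Scaling affected how many probes qualified. Raw intensities scaled to a common median or 75th percentile lost mainly reduced members, whereas both quantile normalizations kept all 131 of these. The deposited log2 values that chose the members have the same quartiles in every column, as quantile normalization gives. Keeping members under quantile normalization is therefore no independent check. Quantile normalization after a background correction added 79 probes outside the members. The ratio of raw intensities, with no normalization, was at least 4 in every cancer line in 186 of the 269 members. After the raw intensities were scaled to a common 75th percentile, 208 probes qualified, all of them members, and 87 of the 131 reduced, 88 of the 102 mixed and 33 of the 36 silenced members were kept. Under all 4 rescalings of the raw intensities that were tried, 205 members (76.2%) passed each time.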

How the data were processed

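Total RNA of 4 cell lines was hybridised once each to HumanHT-12 beadchips. Per the labels, the authors exported probe profiles with BeadStudio (version 3.1.3, per the series text in the labels), and the deposited raw table holds probe intensity with no background subtraction or scaling between arrays, judging from its values. The authors' second deposited table holds log2 values with the same quartiles in every column, as quantile normalization gives. Each column correlated with the log2 raw intensity of its own array (r of 0.9993 to 0.9999). How that table was made is not given in the sources used here. Columns were matched to samples by accession or cell line.

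The members and the settings tried were chosen with earlier results of these data known. Members were taken from the deposited log2 table, classes from the raw table against each array's median over all 48803 probes, and bounds by holding a cancer line at the median log2 level. Since the rule used all 4 arrays, the members' differences were not tested statistically. Holding cancer lines at the median probe for the larger differences, the order and the spread of the lines was chosen after seeing the data. By the rule for naming, 2 identifiers per class, those with the largest mean difference, are given, since no probe is paired with a gene. Other members are described by their values. The gene lists, cell type markers and methylation comparison that had been planned need gene names and were not used. Rescalings used limma 3.58.1 in R 4.3.3 (normexp with an offset of 50, and quantile normalization), and tables were made with pandas 2.3.3 in Python 3.11.15.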

Additional observations from a re-analysis of the deposited data

How the results depend on the processing

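The count of 269 members was 275 with log2 raw intensities quantile normalized (266 members kept), 348 after normexp correction (269 kept), 224 with a common median (223 kept) and 208 with a common 75th percentile (208 kept). The last scaling moved the median difference of all probes to -0.12 in DU145 and -0.15 in LNCaP-FGC. A log2 difference of 1.5 gave 519 probes and one of 3 gave 108. Holding the cancer lines at the median probe, chosen after seeing the data, left 266. This setting can only shrink a difference, so it could add no probe. Requiring RWPE-1 above its array's 75th percentile left 269 and could remove none, since the dimmest member was at the 85.3 percentile. Leaving out 1 cancer line gave 367 (without PC3) to 478 (without LNCaP-FGC) probes, 53 (without LNCaP-FGC) to 71 (without PC3) silenced and 197 (without PC3) to 357 (without LNCaP-FGC) reduced. Without DU145 these were 378, 63 and 209. A rule over fewer lines can only admit more probes. The classes depended on the line drawn: at the 60th percentile of each array 49 members were silenced and 105 reduced, and at the 75th percentile 104 and 53. Settings for methylation at member genes were not run, because no probe or site is paired with a gene here. RWPE-1, the only control, could not be left out, and with 1 array per line the error of a repeat measurement is unknown.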
